A study of Mus musculus with 83 samples.

Results

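RNA polymerase II (Pol II) occupancy was compared between C64 mouse embryonic stem cells (mESCs) depleted of TATA-box binding protein (TBP) for 6 h and untreated C64 cells. The 4 libraries of this comparison were chosen by label, as the Pol II control and indole-3-acetic acid (IAA) samples of run 2, and are 4 of the 83 samples given. All 27752 genes of their count table were considered, and the 16157 with enough counts in these 4 libraries were tested. C64 is a single clonal line of JM8.N4 cells in which both copies of TBP carry a minimal auxin-inducible degron (mAID) at the N-terminus, so that IAA triggers degradation of the tagged protein. By the study's methods, C64 also carries a HaloTag on the largest Pol II subunit and a green fluorescent protein tag on a histone H3 variant. The 2 IAA libraries came from cells given 500 µM IAA for 6 h. The study describes the depletion as incomplete, with some TBP protein remaining. The 2 control libraries are labelled as untreated, while the study's text describes control cells as treated with DMSO. Both groups were grown on gelatin in embryonic stem cell medium and both carry the degron. No IAA-treated line without the degron is in the tables used here, so an effect of IAA itself and an effect of losing TBP cannot be told apart. In other C64 and B8 libraries, IAA was given for 16 h, with a heat shock, or to B8 cells, which are C64 cells without the TBP paralog TRF2, and these were used only to follow the same genes.

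TBP binds the TATA box, a T- and A-rich element shortly upstream of the start site of some genes, and as a subunit of TFIID it is brought to promoters with and without that element, where the Pol II preinitiation complex assembles. TBP also serves Pol I and Pol III through other complexes. In cleavage under targets and tagmentation (CUT&Tag), an antibody tethers a transposase to its target on chromatin and the enzyme inserts sequencing adapters nearby, so fragments counted over a gene report Pol II bound there and not RNA.

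Assigned fragments numbered 4816834 to 5029299 per library, and pairwise correlations of log2 CPM (counts scaled to the library's TMM-adjusted total) ranged from 0.969 to 0.983. The count columns are not numbered by replicate. By name they form 2 sets of 1 control and 1 IAA library each, here called set A (a 2 after the condition) and set B (no 2). Same-set libraries gave the highest correlations, and the deviations of control and IAA libraries within a set correlated at 0.336 over 16961 genes, so the name set was a term of the fit. The median absolute log2 difference between the 2 control libraries was 0.230, more than between IAA and control in set A (0.169) or set B (0.170). Of 11 embryonic stem cell markers 10 were tested and 0 passed the threshold, with summed levels of 1590 and 1392 CPM in control and 1258 and 1261 CPM in IAA libraries. Sox2 had 0 counts in all 4 libraries. It lies inside another annotated gene, and fragments over more than 1 gene were not counted. Summed levels of mesoderm and primitive streak markers were 105 and 106 CPM in control and 114 and 111 CPM in IAA libraries (8 of 9 tested), those of trophectoderm markers were 119 and 122 against 122 and 120 CPM (7 of 8 tested), and those of epiblast and neuroectoderm markers were 151 and 136 against 165 and 140 CPM (6 of 9 tested), each with 0 genes past the threshold. Of 10 fibroblast markers 4 were tested, and 0 of the 9 markers of 2-cell-like cells. The gene of the depleted protein, Tbp, had 35.7 CPM in control and 29.8 in IAA in set A and 36.4 and 40.99 in set B, a log2 difference of -0.03 ± 0.16 (SE). IAA acts on the protein, so this value does not measure depletion. Tbpl1, the gene of TRF2, stood at -0.06 ± 0.28.

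Does Pol II leave or enter particular genes after 6 h of IAA? With the set as a term, Pol II was lower over 175 genes (1.08% of 16157) and higher over 20 (0.124%) at a Benjamini-Hochberg adjusted p under 0.05 by edgeR's quasi-likelihood test. Changes below are log2 of IAA over control ± SE from this fit, with n = 2 libraries per group. The fit took each gene's spread from a trend shared by all genes. The SE therefore does not measure that gene's own spread between libraries. For Actb it was 0.10 with the set term and 0.31 without it. Among the deepest losses were those over the non-coding gene 1110038B12Rik, Dipk1b, the Hsp70 chaperone gene Hspa8 and Pabpc4, which encodes a poly(A)-binding protein. Of the 175, 27 were genes of cytosolic ribosomal proteins, of which 43 large-subunit and 33 small-subunit genes were among the 16157 tested. The median change of all tested genes was 0.00, 90% of genes lay between -0.38 and 0.39, and 99.6% lay within a 2-fold difference. The median of the 175 lower genes was -0.56, with a range of -2.56 to -0.30, and 26 of them fell by more than 1 on the log2 scale. The 20 higher genes had a median of 0.50 and a range of 0.33 to 1.21. In the plot of one set against the other the lower genes sit in 1 quadrant: 174 of 175 were below 0 in both sets, while over all tested genes 26.4% were below 0 and 26.4% above 0 in both, and the correlation of the 2 sets' ratios across genes was 0.0957. IAA and control libraries did not overlap in CPM for 151 of the 175, against 26.9% of all genes. The 175 were picked from these same libraries, so their agreement between sets and lack of overlap follow in part from that choice and are not separate support.

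**Figure D1:**
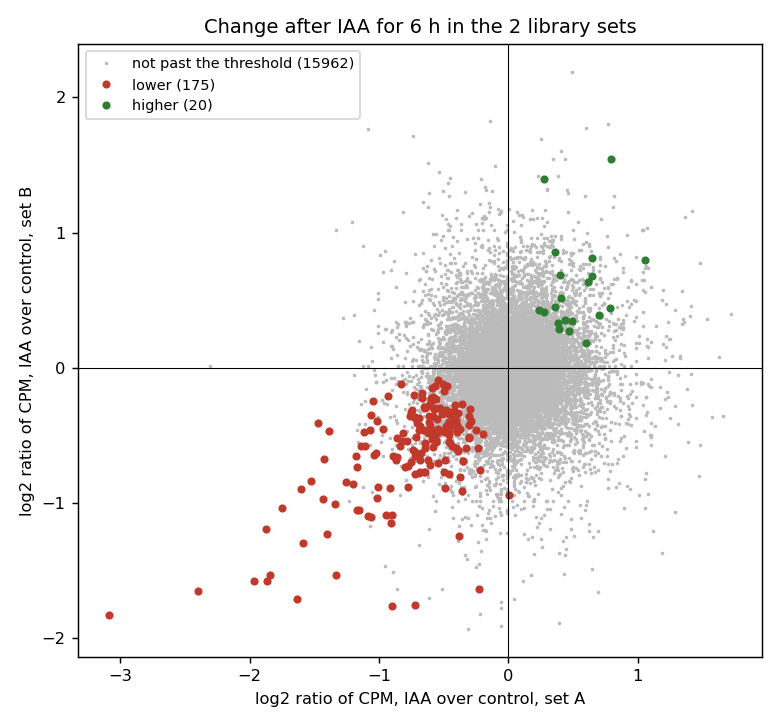
Log2 ratio of CPM, IAA over control, in set A (horizontal) and in set B (vertical) for each of the 16157 genes tested, with the 175 lower genes in red and the 20 higher genes in green. All tested genes form a cloud about 0, and 174 of the 175 lower genes lie below 0 on both axes, Hmox1 being the exception.

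These calls rest on the set term. Without it edgeR called 7 genes lower (0.0433%) and 0 higher, with 356 at an unadjusted p under 0.05, and all 7 were among the 175; DESeq2 with the set term called 44 lower and 0 higher, and a joint edgeR fit of all 4 groups of the run 20 lower and 0 higher. The fit with the set has 1 residual degree of freedom per gene and took the spread from the trend shared by all genes. Its SEs and smallest p-values are therefore less certain than their size implies. The study calls the libraries of a group biological replicates but does not say whether they are separate cultures of the clone, so p-values measure only the spread between these libraries, which may be technical.

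Promoter sequence is shown for 6 lower genes because TBP's own element is a DNA sequence: the 3 lower genes with the letters TATAAA in the stretch where a TATA box is usually found, and 3 genes that were among the 7 called without the set term and lack those letters. Each window runs 5′ to 3′ on the gene's strand, from 40 bases before to 10 after the RefSeq start (GRCm38.p6), with TATAAA and the first transcribed base in capitals. The windows are chr17:34952462-34952511 (minus strand) for 1110038B12Rik, chr6:72439547-72439596 (minus) for Mat2a, chr10:96616961-96617010 (plus) for Btg1, chr2:26628417-26628466 (plus) for Dipk1b, chr2:144270563-144270612 (minus) for Snx5 and chr17:45563896-45563945 (plus) for Slc35b2.
1110038B12Rik: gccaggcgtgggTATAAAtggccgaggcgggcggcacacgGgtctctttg
Mat2a: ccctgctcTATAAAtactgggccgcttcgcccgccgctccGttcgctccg
Btg1: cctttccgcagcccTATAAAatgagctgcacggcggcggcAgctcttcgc
Dipk1b: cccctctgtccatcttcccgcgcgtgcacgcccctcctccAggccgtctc
Snx5: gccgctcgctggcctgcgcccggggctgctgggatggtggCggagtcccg
Slc35b2: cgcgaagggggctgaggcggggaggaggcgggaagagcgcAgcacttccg
TATAAA begins 28 bases before the start of 1110038B12Rik, 32 before that of Mat2a, a methionine adenosyltransferase gene, and 26 before that of Btg1, an antiproliferation gene. Mat2a, chosen for its sequence, had 271 CPM in control and 168 in IAA in set A and 194 and 150 in set B (-0.54 ± 0.10). Btg1, chosen likewise, had 21.3 and 18.1 CPM in set A and 21.8 and 6.74 in set B (-0.80 ± 0.23), so its fall came mostly from set B. The 3 genes without the letters TATAAA had to pass without the set term as well. The sizes of these 6 falls therefore cannot be compared by sequence.

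The deepest fall was over 1110038B12Rik, a non-coding gene that carries 2 small nucleolar RNAs (snoRNAs) on its strand (chr17:34950238-34952471). It had 104 CPM in control and 11.9 in IAA in set A and 50.3 and 13.9 CPM in set B (-2.56 ± 0.19). Control set A stood well above control set B, and both stood above both IAA libraries. Dipk1b, a kinase-like gene, had 105 and 19.7 CPM in set A and 87.5 and 27.5 in set B (-2.03 ± 0.15, chr2:26628457-26636497). Its span is 89.3% shared with another annotated gene, so its counts come from the small remainder, and the snoRNA gene Snora43 lies 1350 bases away. Snora43 itself, at 13.0 and 3.02 CPM in set A and 6.45 and 1.89 in set B, fell by 1.99 ± 0.45 on the log2 scale. It is annotated as 2 overlapping entries at the same locus and rests on 9 to 64 counts per library.

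**Figure D2:**
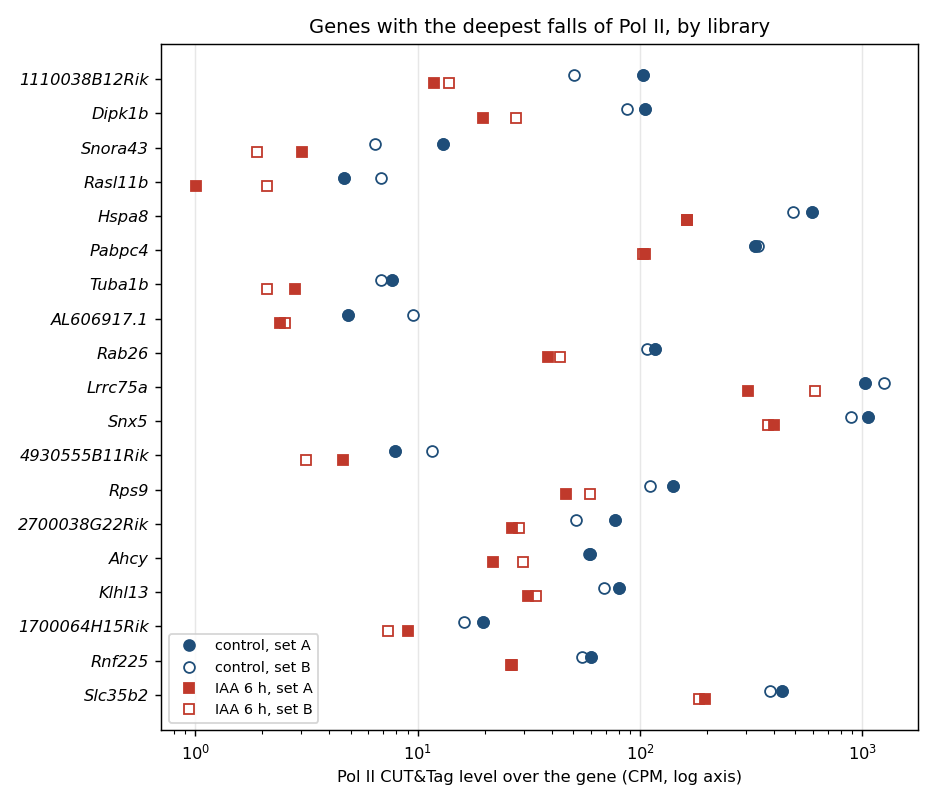
Pol II level in CPM (log axis) of 19 genes among those with the largest falls and no overlap, in each of the 4 libraries, with controls as blue circles, IAA libraries as red squares, set A filled and set B open. For every gene both squares lie to the left of both circles, for Hspa8 at 162 and 163 CPM against 486 and 595 CPM.

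Among abundant genes, Hspa8, which encodes the constitutive cytosolic Hsp70 and hosts 3 snoRNAs, went from 595 to 163 CPM in set A and from 486 to 162 in set B (-1.73 ± 0.09, chr9:40800984-40810087). Pabpc4, a cytoplasmic poly(A)-binding protein gene with 2 snoRNAs, went from 328 to 106 CPM and from 338 to 103 CPM (-1.68 ± 0.10, chr4:123262351-123298925). Snx5, an endosomal sorting nexin gene with 2 snoRNAs, went from 1056 to 400 CPM and from 885 to 376 CPM (-1.32 ± 0.09, chr2:144250123-144270906). In all 3 genes no IAA library reached a control. Lrrc75a was among the most highly occupied of these genes, at 1031 and 306 CPM in set A and 1252 and 610 in set B (-1.38 ± 0.09). IAA set B stood well above IAA set A, but both lay below both controls. Rab26, a vesicle GTPase gene, went from 116 to 38.4 CPM and from 107 to 43.5 CPM (-1.45 ± 0.13, chr17:24527241-24534210). Of its span 22.2% is shared with another gene, so part of its signal was not counted. Slc35b2, the Golgi transporter of the sulfate donor PAPS, went from 436 to 196 CPM and from 382 to 184 CPM (-1.10 ± 0.09, chr17:45563874-45567671). Ahcy, which encodes the enzyme that clears S-adenosylhomocysteine, went from 59.4 to 21.7 CPM and from 58.8 to 29.8 CPM (-1.20 ± 0.16). Klhl13, a ubiquitin-ligase adaptor gene on the X chromosome, went from 80.0 to 31.4 CPM and from 68.8 to 34.1 CPM (-1.19 ± 0.14). Like the genes before them, these had no IAA library within the range of the controls. Others among the largest falls without overlap were Rasl11b, Tuba1b, AL606917.1, 4930555B11Rik and 1700064H15Rik, all under 20 CPM in every library, and Rps9 and 2700038G22Rik, which are described with their groups below. Rnf225, a ring finger gene, went from 60.4 to 26.5 CPM and from 54.9 to 26.3 CPM (-1.13 ± 0.15), again without overlap.

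Pol II fell over some genes of cytosolic ribosomal proteins, the structural proteins of the translating ribosome, while most of these genes did not pass the threshold. Of 43 tested large-subunit genes 15 fell (34.9%, against 1.08% of all genes), and 43 of 43 had a change below 0 with a median of -0.37. Of 33 small-subunit genes 12 fell (36.4%), and 30 were below 0 with a median of -0.33. Neither list had a higher gene. Rps9 went from 141 to 46.2 CPM in set A and from 111 to 59.5 CPM in set B (-1.25 ± 0.12), with both IAA libraries below both controls. Shallower falls in that list were those of Rps16 (-0.86 ± 0.15) and Rps26 (-0.75 ± 0.19). In the large subunit the falls were shallower, led by Rpl10a (-0.77 ± 0.14), Rplp0 (-0.73 ± 0.13), Rplp1 (-0.68 ± 0.18), Rpl13a (-0.67 ± 0.19) and Rpl37 (-0.62 ± 0.16). For Rpl10a the groups overlapped, at 91.4 CPM in control and 53.1 in IAA in set A and 45.1 and 27.1 in set B, since set A ran higher than set B in both conditions. Of Rpl13a's span 88.6% is shared with other genes. Ribosomal protein genes have many near-identical processed copies in the genome and the placement of such reads is not given in the sources used here, so single values are uncertain. Without the set term 0 genes of either list passed, and in the joint fit of the run 0 large-subunit and 2 small-subunit genes did. By contrast, 0 of 54 genes of mitochondrial ribosomal proteins fell or rose, with a median of -0.09.

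Of 39 genes of translation factors and poly(A)-binding proteins 8 fell (20.5%) and 0 rose, with a median of -0.11. Pabpc1, the main cytoplasmic poly(A)-binding protein gene, went from 236 to 103 CPM in set A and from 223 to 123 CPM in set B (-1.03 ± 0.10). Eif4a2, a helicase gene of translation initiation that hosts 5 snoRNAs, went from 379 to 168 CPM and from 239 to 144 CPM (-0.96 ± 0.10). Eef1b2, an exchange factor of elongation, went from 146 to 72.6 CPM and from 104 to 56.3 CPM (-0.95 ± 0.11). In each of these 3 genes both IAA libraries lay below both controls. Tpt1, a translationally controlled growth gene, fell too (-0.83 ± 0.11), as did Pabpc4. Not every abundant factor moved: Eef2, the translocation factor, had 431 and 347 CPM in control and 404 and 356 CPM in IAA libraries (-0.03 ± 0.09, named after its values were seen).

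Non-coding snoRNA host genes, whose introns yield the guide RNAs of rRNA modification, fell in 9 of 18 cases (50%) and rose in 0, with a median of -0.42. Besides 1110038B12Rik these included 2700038G22Rik, at 77.0 and 26.5 CPM in set A and 51.4 and 28.6 in set B (-1.21 ± 0.15), and Zfas1, at 93.4 and 49.9 CPM and 65.7 and 30.7 CPM (-0.99 ± 0.13). 2410006H16Rik went from 87.7 to 38.6 CPM and from 69.5 to 43.9 CPM (-0.93 ± 0.13), and Snhg12 from 72.9 to 34.6 CPM and from 58.4 to 42.3 CPM (-0.78 ± 0.14). All 4 had both IAA libraries below both controls. Other members kept their level within error, for example Snhg4 at 455 and 433 CPM in control and 503 and 441 CPM in IAA libraries (0.09 ± 0.09, named after its values were seen).

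Among chaperones, the falls lay in particular genes of the cytosol and in the endoplasmic reticulum (ER). Of 29 cytosolic HSP70, HSP90, HSP110 and cochaperone genes 3 fell (10.3%), with a list median of -0.03. These were Hspa8, the constitutive Hsp90 gene Hsp90ab1, from 467 to 195 CPM in set A and from 326 to 181 CPM in set B (-1.06 ± 0.09), and the Hsp110 gene Hsph1 (-0.43 ± 0.12). The stress-inducible Hsp90 gene Hsp90aa1, named after its values were seen, stood at 244 and 192 CPM in control and 245 and 158 CPM in IAA libraries (-0.13 ± 0.10). Of 16 ER chaperone genes 5 fell (31.2%), 15 were below 0, and the median was -0.29. The protein disulfide isomerase gene P4hb went from 255 to 124 CPM and from 192 to 123 CPM (-0.85 ± 0.10), the calcium-binding lectin gene Calr fell by 0.81 ± 0.12 and the ER Hsp70 gene Hspa5 by 0.69 ± 0.12 on the log2 scale, with Pdia3 (-0.46 ± 0.10) and Pdia6 (-0.44 ± 0.12) after them. None of these 5 genes had overlapping groups. For the ER list 0 genes passed without the set term and 0 in the joint fit. Of 11 mitochondrial chaperone and protease genes only Hspd1, the Hsp60 gene, fell (-0.65 ± 0.10), and 0 of 14 genes of the TRiC chaperonin and prefoldin changed at the threshold.

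**Figure D3:**
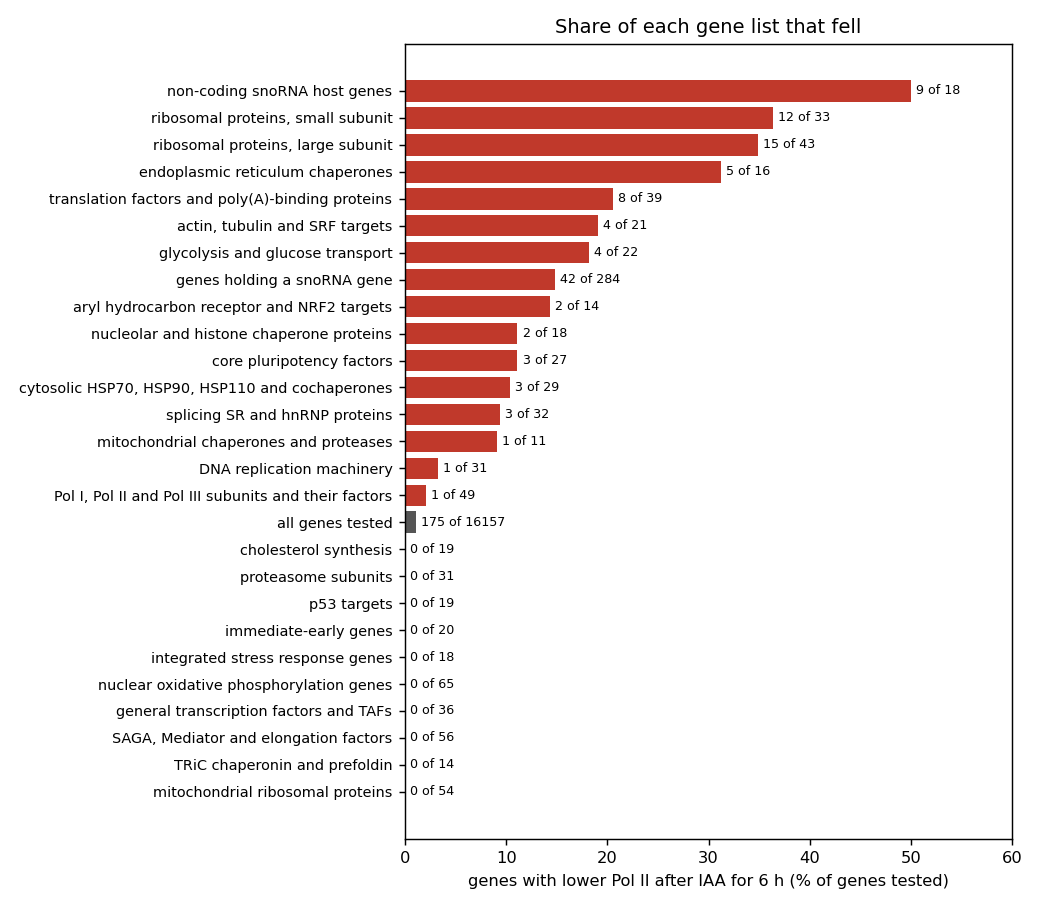
Percent of the tested genes of each list with lower Pol II after 6 h of IAA (bars from 0), with the number of lower and tested genes beside each bar and all genes tested in grey. Non-coding snoRNA hosts (50%) and ribosomal protein genes (36.4 and 34.9%) head the plot, and of the lists plotted, which have at least 5 tested genes and leave out the marker lists, 10 have 0 lower genes, against 1.08% of all genes.

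Genes of the transcription machinery itself gave few calls. Of 36 genes of general transcription factors and TAFs 0 passed, with a median of 0.01. The smallest p-values in that list were those of the TFIIA gene Gtf2a1 (0.37 ± 0.13) and Taf4, a TFIID subunit gene (0.25 ± 0.10). Of 56 genes of SAGA, Mediator and elongation factors 0 passed (median 0.00), and of 49 genes of polymerase subunits and their factors 1 fell. This was Taf1d, a Pol I factor gene that hosts 8 snoRNAs, at 598 and 362 CPM in set A and 440 and 285 in set B (-0.68 ± 0.09). Of 32 splicing genes 3 fell, namely the cold-inducible Rbm3 (-0.997 ± 0.11), Hnrnpdl (-0.56 ± 0.10) and Hnrnpa3 (-0.54 ± 0.10), and Hnrnpc rose (0.33 ± 0.09). Of 18 nucleolar and histone chaperone genes Nap1l1 (-0.86 ± 0.09) and Npm1 fell, the latter from 979 to 538 CPM in set A and from 671 to 467 CPM in set B (-0.70 ± 0.09). Nucleolin, Ncl, stood at 0.03 ± 0.09 (named after its value was seen). Of 31 DNA replication genes 1 fell, the clamp-loader gene Rfc4, from 179 to 85.6 CPM and from 155 to 72.1 CPM (-1.08 ± 0.11). Rfc4 overlaps Eif4a2 at its end, so the 2 genes' values may not be separate.

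Of 27 pluripotency factor genes 3 fell (11.1%) and the median was -0.23. They were Tet2, a 5-methylcytosine dioxygenase gene, from 410 to 249 CPM in set A and from 324 to 252 CPM in set B (-0.54 ± 0.09), the threonine dehydrogenase gene Tdh (-0.55 ± 0.15), and Klf2 (-0.68 ± 0.19). Esrrb and Tfcp2l1, the most highly occupied transcription factor genes among the stem cell markers, had values of -0.28 ± 0.09 (edgeR adjusted p = 0.0872) and -0.27 ± 0.09 (0.129) that missed the threshold. One primitive endoderm marker of 10, the laminin gene Lama1, fell (-0.32 ± 0.09) with overlapping groups, and the summed level of these markers went from 1943 to 1526 CPM in set A and from 1415 to 1337 CPM in set B. Most of that sum was Lama1 itself, at 1228 and 842 CPM in set A and 770.2 and 724 in set B. Their part in the other results was not tested. Of 22 genes of glycolysis and glucose transport 4 fell (18.2%, median -0.17): the lactate transporter gene Slc16a1 (-0.56 ± 0.13), Ldha (-0.56 ± 0.14), Gapdh and Pkm (-0.30 ± 0.09). Gapdh went from 225 to 147 CPM and from 144 to 113 CPM (-0.50 ± 0.10), its groups overlapping because set A again ran higher. Of 21 actin, tubulin and SRF target genes 4 fell, Tuba1b, Tubb2b, Actg1 and Actb, and the focal adhesion gene Vcl rose (0.34 ± 0.09). Actg1, a cytoplasmic actin gene, went from 180 to 95.7 CPM in set A but from 79.4 to 35.5 CPM in set B (-1.003 ± 0.12), so that IAA set A lay above control set B. Actb moved less (-0.42 ± 0.10), also with overlapping groups. Neither Gapdh nor Actb passed without the set term, in the joint fit or with DESeq2. Neither passed at 16 h, under heat shock or in B8. The study describes Pol II over both genes as largely unchanged after 6 h of IAA. Of 14 aryl hydrocarbon receptor and NRF2 targets Sqstm1, the autophagy receptor gene, fell (-0.73 ± 0.09), as did Hmox1 (-0.53 ± 0.15). Hmox1 moved in set B only, from 70.9 to 36.8 CPM, and stood at 33.8 and 34.0 CPM in set A.

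No gene passed the threshold in several lists of stress and growth genes: 19 p53 targets (median 0.04), 20 immediate-early genes (-0.09), 18 integrated stress response genes (-0.02), 19 genes of cholesterol synthesis (0.08), 65 nuclear genes of oxidative phosphorylation (-0.08) and 31 of the proteasome (-0.03). Their members at the smallest p-values were under 1 on the log2 scale, for example the immediate-early gene Egr1 (-0.35 ± 0.13) and the p53 target Rrm2b (0.33 ± 0.14). Myc stood at -0.40 ± 0.19 (edgeR adjusted p = 0.557). Of genes transcribed by Pol III 3 of 13 could be tested and 0 passed, and of 60 replication-dependent histone genes 2 could be tested and 0 passed. Of the 175 lower genes 74 were in at least 1 of the lists, and 83 were neither in a list nor hosts or neighbours of a snoRNA. The shares of all tested genes in these 2 classes were not determined, so the numbers show no enrichment. Among those 83, the PHD-finger gene Jade1 had the highest level and went from 2467 to 1576 CPM in set A and from 2636 to 2144 CPM in set B (-0.47 ± 0.09, named after its values were seen).

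Hosts of snoRNAs recurred across these groups. Of 284 tested genes that span a snoRNA on their own strand 42 fell (14.8%) and 0 rose, and their median was -0.05. Hosts that code for protein fell in 31 of 248 cases (12.5%) and other hosts in 11 of 36 (30.6%, median -0.21). Of 147 genes that lie within 5000 bases of a snoRNA without hosting one 10 fell (6.80%) and 4 rose. Of the remaining 15726 genes 123 fell (0.782%) and 16 rose. Without the set term 4 hosts, 1 gene near a snoRNA and 2 of the remaining genes fell. Most hosts did not pass the threshold, as the median shows. The counting leaves out fragments shared by 2 genes, and all 143 snoRNA genes that lie inside another gene of the table had 0 counts, so host values exclude the stretch over the snoRNA itself.

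The lower genes were also short and highly occupied. Their median length was 12956 bases against 26775 for all tested genes, their median control level was 113 CPM against 28.8, and the median level per kilobase over all 4 libraries was 7.61 CPM against 1.24. Split into 5 equal bins by mean CPM per kilobase over the 4 libraries, from the lowest to the highest, the numbers of lower genes were 1, 6, 7, 28 and 133, which is 0.0309% of the lowest and 4.12% of the highest bin. The median change of the bins went from 0.08 to -0.04, a small shift beside that of the called genes. High counts make a given change easier to detect, and the part of that in these counts was not tested. Split by length, the bin of the shortest genes held 71 and that of the longest 12 lower genes. For 111 of the 175 (63.4%) another annotated gene overlaps part of the span, against 51.3% of all genes, and for 35 (20%) more than 10% of the span is shared, against 17.6%.

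**Figure D4:**
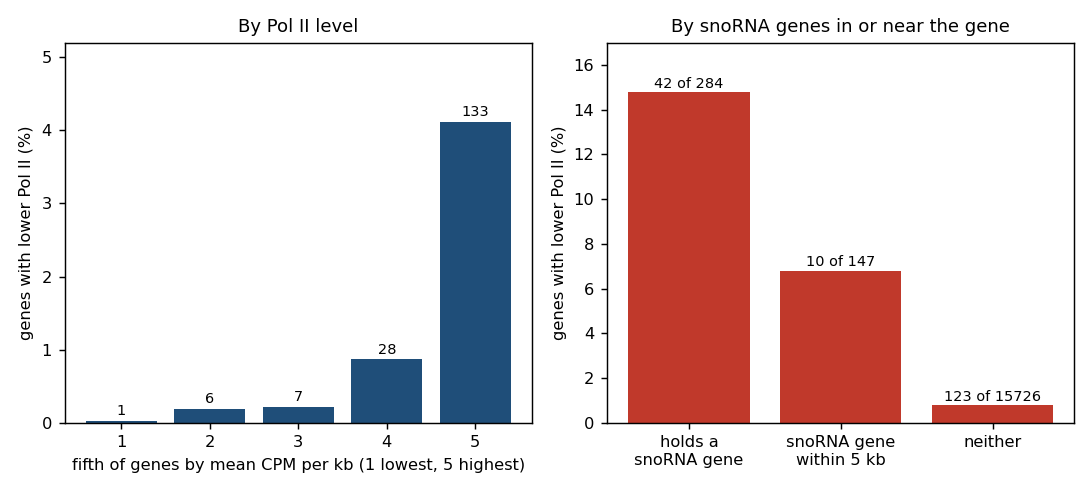
Percent of tested genes with lower Pol II (bars from 0), by bin of mean CPM per kilobase over the 4 libraries (left) and by relation to a snoRNA gene (right), with numbers of lower genes above the bars. The share is 4.12% in the highest bin, and 14.8% in genes that hold a snoRNA gene against 0.782% in genes with none within 5000 bases.

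Lower genes also lay next to each other. Of the 175, 34 (19.4%) had another lower gene within 5000 bases, against 0.910% of all tested genes, and they formed 19 pairs. Genes annotated as several entries, such as Snora43 near Dipk1b, were left out of this search, so such pairs are missing from these counts. In 11 of the pairs the genes face each other, in 8 they point the same way, and in 0 they face apart (57.9, 42.1 and 0%), while among all 6236 pairs of tested genes at that distance the shares were 37.7, 32.99 and 29.3%. Slc35b2 and Hsp90ab1 face each other 104 bases apart and fell alike (-1.10 and -1.06). 2410006H16Rik and Lrrc75a face each other 77 bases apart, and Gapdh and Iffo1, Rpl23a and Tlcd1, and Eif4a2 and Rfc4 face each other with overlapping ends. In 13 of the 19 pairs at least 1 gene was in a list or hosted a snoRNA, but the share among all 6236 pairs was not determined. The lists were also chosen with earlier results of these data known, so this number describes these pairs only. The counting took no account of strand or of which gene a fragment near a gene end came from, so the 2 values of a pair may not be independent, and this was not tested.

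Did genes with a TATA box differ from those without? By the deposited lists, 77 of 3510 tested TATA genes fell (2.19%) and 4 rose, and 94 of 11656 TATA-less genes fell (0.806%) and 13 rose. The medians were 0.01 and 0.00, and median control levels were 27.1 and 31.02 CPM. Without the set term 3 TATA and 4 TATA-less genes fell. Among the latter were 1110038B12Rik, whose promoter is printed above with TATAAA at 28 bases before its start, as well as Dipk1b, Rab26 and Slc35b2. The lists and a search of RefSeq promoters are thus different measures. A RefSeq promoter (250 bases before to 50 after the start, GRCm38.p6) was matched for 11249 tested and 130 lower genes. Read on the gene's strand, TATAAA between 40 and 20 bases before the start was found for 3 lower genes (2.31%) and 150 of all (1.33%), and of those 150 genes 3 fell (2.00%, median -0.01) against 127 of 11099 without it (1.14%). TATAAAA or TATATAA in the same stretch was found for 6 lower genes (4.62%) and 103 of all (0.916%), and TATAAA anywhere in the 300 bases for 11 (8.46%) and 517 (4.60%). Most lower genes therefore held none of these letters in that stretch. CACGTG, the E-box that reads the same on both strands, was present in 16 lower genes (12.3%) and in 9.86% of all, and a start of C followed by 4 C or T bases, as in many ribosomal protein genes, in 29 (22.3%) and in 18.5% of all.

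The 20 rises were smaller than the falls, with a median of 0.50. The largest without overlap among genes over 20 CPM was that of Nt5e, an ecto-nucleotidase gene, from 39.7 to 62.5 CPM in set A and from 39.3 to 69.4 CPM in set B (0.74 ± 0.14). Trim67 went from 27.2 to 42.6 CPM and from 23.1 to 37.2 CPM (0.67 ± 0.17), and the kinesin gene Kifc1 from 29.0 to 44.6 CPM and from 31.2 to 48.6 CPM (0.63 ± 0.16). In these 3 genes the sets gave like levels and every IAA library lay above both controls. The SUMO protease gene Senp3 went from 53.5 to 92.3 CPM and from 44.3 to 60.3 CPM (0.63 ± 0.13) and lies 692 bases from a lower gene. The remaining named rises were 9630013D21Rik (1.21 ± 0.36) and D630033O11Rik (0.93 ± 0.24), both under 25 CPM and the first with 83.2% of its span shared, Fam214a (0.62 ± 0.15), Shoc1 (0.56 ± 0.16), the plexin gene Plxnb3 (0.53 ± 0.15), Zfp367 (0.46 ± 0.11), the phospholipase gene Plcg2 (0.42 ± 0.11) and Gtpbp1 (0.41 ± 0.11). Of the 20, 2 were in a list, and the share of all tested genes in a list was not determined. Hosts of a snoRNA were 0 of the 20, against 1.76% of all tested genes. DESeq2, the fit without the set and the joint fit each called 0 of them.

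Were the same genes lower in libraries that this comparison did not use? At 16 h of IAA in C64 (run 3), 162 of the 172 lower genes measured there were below 0 (94.2%, against 48.4% of all), with a median of -0.50, and 90 passed the threshold downward (52.3%, against 1.41% of the genes tested at 16 h) and 0 upward. The 168 genes called only with the set term gave 155 of 165 below 0 and 83 lower. In B8 at 6 h (runs 6 and 8), 152 of 167 were below 0 (91.0%), and 78 were lower (46.7%, against 4.27% of the genes tested in B8) and 3 higher. The calls in B8 rest on run as a term, since over all 12686 genes tested there 542 were lower and 371 higher with it and 22 and 17 without it. The heat-shocked C64 libraries, which share run 2 and its sets, gave 165 of 171 below 0 (96.5%) and 58 lower (33.9%, against 0.547%). No library is in 2 of these comparisons. The calls at 16 h were made with replicate number as a term, and those under heat shock with the set. How many of them would pass without that term was not tested. The study, whose methods state no such term, reports fewer lower genes in either comparison. Hspa8 stood at -1.73 ± 0.09 at 6 h, -2.04 at 16 h, -0.85 under heat shock and -1.64 in B8, and Pabpc4 at -1.68, -1.69, -0.92 and -1.72 in the same order. Btg1, with a fall that came mostly from set B, stood at -0.01 at 16 h, -0.16 in B8 and -0.54 ± 0.23 under heat shock. Of the 20 higher genes, by contrast, 8 were below 0 at 16 h and 2 were higher (10%, against 0.716%), Senp3 (0.73) and Shoc1 (0.70). Under heat shock 8 were below 0 and 2 were higher (10%, against 0.0902%). In B8 3 of 17 were higher (17.6%, against 2.92%) and 1 lower, with Senp3 at 0.95, Nt5e at 1.10 and Dapk3, named after its value was seen, at 1.10.

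**Figure D5:**
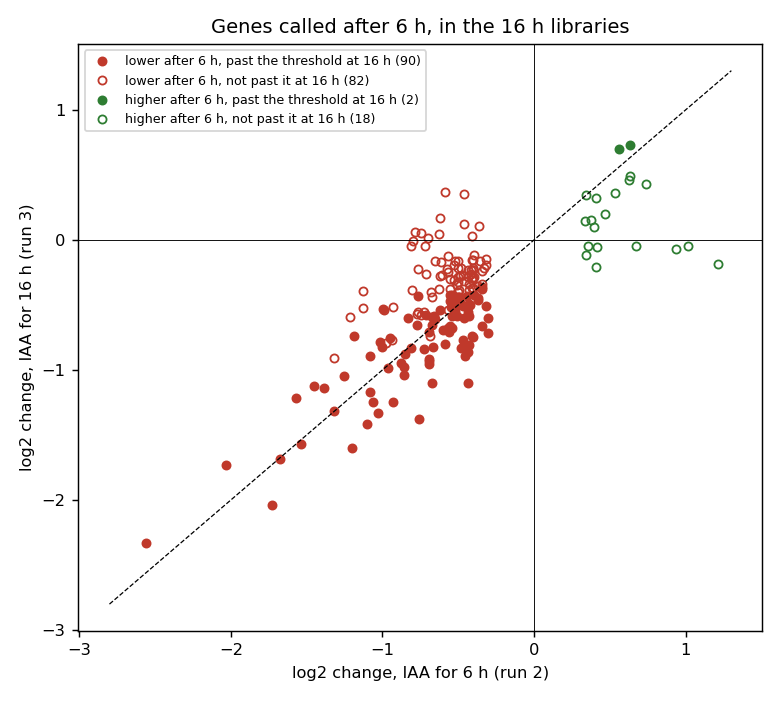
Change in Pol II (log2 IAA over control) at 16 h against that at 6 h in C64 for the 172 lower (red) and 20 higher (green) genes of the 6 h comparison measured at 16 h, filled where the 16 h change also passed the threshold, with equality as a dashed line. Of the lower genes 162 lie below 0 at 16 h and 90 are filled, while the higher genes lie on both sides of 0.

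Group medians gave a mixed picture at 16 h. ER chaperones were at -0.48 with 7 lower (-0.29 and 5 at 6 h) and glycolysis at -0.38 with 9 lower (-0.17 and 4). Large- and small-subunit ribosomal protein genes were at -0.16 and -0.21 with 3 and 5 lower, against -0.37 and -0.33 with 15 and 12 at 6 h. The p53 targets stood at 0.44 with 9 higher at 16 h, against 0.04 with 0 at 6 h. These list-level differences were not tested, and duration cannot be told apart from run.

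Gene by gene, the difference between the IAA effects at 16 h and 6 h passed the threshold for 7 of 16879 genes (0.0415%). Of the 175 lower genes 1 was among them, Eef1e1, a gene of the multi-synthetase complex, which fell at 6 h (-0.58 ± 0.13) and stood at 0.37 ± 0.18 at 16 h. The difference between B8 and C64 passed for 44 of 15338 genes (0.287%), including the lower genes Eloc and Rcc1, which stood at 0.55 and 0.50 in B8. The line cannot be told apart from the run either. With against without heat shock, 0 of 16961 genes passed edgeR's quasi-likelihood test (256 had an unadjusted p below 0.05, and 0 passed the likelihood-ratio test). The smallest p-values were those of Ahcy, at -1.20 ± 0.16 without and 0.06 ± 0.26 with heat shock (difference 1.27 ± 0.36), and Hspa8 (difference 0.89 ± 0.30), both with an edgeR adjusted p of 0.9999. None of the 20 higher genes differed in any of the 3 tests. A value past the threshold at 6 h and not elsewhere is therefore shown to differ only for genes that passed these tests.

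All values above are relative to the other genes of the same libraries, because TMM scaling takes out a change shared by most genes. The deposited spike-in read numbers give mouse reads mapped per E. coli read mapped of 91.8 in control and 201 in IAA for replicate 1 and 76.0 and 42.9 for replicate 2, so the IAA over control ratio was 2.19 in one and 0.564 in the other. The 2 replicates moved in opposite directions, and these rows could not be tied to single count columns, so a shared gain or loss of Pol II is not bounded by these data. The study normalized Pol II CUT&Tag with 2 spike-in controls and a spike-in-free method and reports no global change. It reports none in spike-in-normalized nascent RNA either.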

How the data were processed

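The files hold raw counts of fragments over each gene, made by the authors using featureCounts 2.0.0 on paired-end CUT&Tag alignments (Bowtie2, mm10/GRCm38) subsampled to fixed read numbers with PCR duplicates kept. Whole gene spans of Ensembl release 102 were counted without strand, and fragments over more than 1 gene were not counted. The deposited TATA gene lists and spike-in read numbers hold other data (gene names and whole read numbers) and carry no test result. The study's methods describe a removal of pseudogenes, but some, such as Mid1-ps1, remain in the table. Groups were taken from the labels.

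Counts were tested with edgeR 4.0.16 (R 4.3.3): TMM scaling, a filterByExpr minimum of 20 counts, quasi-likelihood F tests (legacy=FALSE) with name set as a block (the study's methods state no block), and a Benjamini-Hochberg threshold of 0.05 over all tested genes. Whether the sets pair the libraries was checked from deviations from group means. All 6 pairs of run 2 groups correlated positively (0.109 to 0.497), so the set was kept; it comes from column names and not from a replicate number in the labels. IAA effects at 16 h (replicate number as block, correlation 0.494), under heat shock (set) and in B8 (run) were fitted alike, and differences between effects in joint fits. Depth was 4816834 to 5029299 counts. Script checks recovered known changes in simulated counts. Those counts were drawn with the shared spread and set effect of the same fit, so the checks cannot test that spread. DESeq2 1.42.0, limma 3.58.1 (voom), likelihood-ratio and other settings were alternatives.

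The genes and lists were chosen with earlier results of these data known, and so were the tests. Named were the 20 largest falls and 12 largest rises past the threshold without overlap in CPM, genes past it with and without the block, up to 5 members per list past it (or the 2 with the smallest p), up to 5 genes per direction of each difference test (or the 2 with the smallest p), and 7 control genes. Hosts of snoRNAs were taken from GENCODE vM21. Genes annotated as several entries were not searched for hosted or nearby snoRNAs, neighbouring lower genes or overlaps. Of 27471 TATA-less transcript accessions 27255 could be matched to a symbol, and 14 genes in both lists were left out. Promoters are RefSeq (GRCm38.p6), used only within 1000 bases of the deposited gene start. Some genes that this rule selects are not reported here.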

Additional observations from a re-analysis of the deposited data

Results flagged for a closer look

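The difference between the IAA effects at 16 h and 6 h passed the threshold in a test of the difference itself (edgeR, joint fit) for 7 genes. The effect was higher at 16 h for the phosphatase-family gene Ptprv (1.02 ± 0.22), Eef1e1 (0.94 ± 0.22) and the TNF receptor family gene Eda2r (0.76 ± 0.18). It was lower for the glucose transporter gene Slc2a1 (-0.85 ± 0.17), Fxyd4 (-0.81 ± 0.19), the ubiquitin ligase gene Cblb (-0.71 ± 0.18) and Fut9 (-0.71 ± 0.17). At 6 h Slc2a1 stood at -0.29 ± 0.09 and at 16 h at -1.13 ± 0.11.

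Between B8 and C64 at 6 h the same kind of test passed for 44 genes, and the 5 largest in each direction are given. The effect was higher in B8 for Tmem190 (2.79 ± 0.62), the mitochondrial protease gene Clpp (2.02 ± 0.38), the chemokine gene Ccl5 (2.01 ± 0.43), Milr1 (1.85 ± 0.31) and Cacng1 (1.79 ± 0.34). It was lower in B8 for Olfr986 (-1.66 ± 0.34), Mid1-ps1 (-1.60 ± 0.23), Erdr1 (-1.39 ± 0.26), the cell-cycle inhibitor gene Cdkn1a (-1.20 ± 0.27) and Mid1 (-1.19 ± 0.23). Tmem190 was not tested at 6 h in C64 alone, and of the others none passed the threshold there.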

How the results depend on the processing

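The counts of lower and higher genes moved from 175 and 20 to 7 and 0 with no replicate block, 44 and 0 with DESeq2 (block kept), 20 and 0 when all 4 groups of the run were fitted jointly, 29 and 0 with the likelihood-ratio test and no block, and 97 and 4 with no filter on low counts; library size alone gave 35 higher. All 44 DESeq2 genes, all 20 of the joint fit and all 7 without the block were among the 175. For TATA and TATA-less genes the lower counts of 77 and 94 became 3 and 4, 21 and 21, 11 and 9, 14 and 15, and 48 and 46 in the same 5 settings. Leaving out 1 library at a time, with no block, gave 5 to 41 lower and 0 to 4 higher genes, 2 to 19 TATA and 3 to 20 TATA-less genes. The fewest (5) came without control set A and the most (41) without IAA set A. In these fits Actb ranged from -0.96 to 0.10, Lama1 from -0.65 to 0.025 and Hmox1 from -1.002 to 0.064, above 0 only without control set A (Actb, Lama1) or control set B (Hmox1). Of the 16 h against 6 h differences, 7 became 0 with no block and 0 to 3 with 1 library of run 2 left out. Of the B8 against C64 differences, 44 became 103 with the likelihood-ratio test, 20 with no block and 0 to 2 with 1 library left out. Robust and legacy quasi-likelihood fits, limma-voom, DESeq2 size factors and a minimum count of 50 left the count of lower genes within 1.5 times. Over the named genes and these settings 1562 values kept direction and side of the threshold, 515 fell short of it, 3 newly passed and 3 reversed. The cause of these moves was not tested. Scaling by spike-in was not run because those rows could not be tied to count columns. With 2 libraries per group and 1 residual degree of freedom, changes under about 0.30 (log2) were not called even over abundant genes.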
